A study of Rattus norvegicus with 5 samples.

Results

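The star strands of rat microRNAs (miRNAs), the strands marked with an asterisk in the older naming and also called passenger strands, were measured in hearts of rats that had undergone transverse aortic constriction (TAC) or a sham operation. They were taken by name, as the probes that begin with rno- and end with an asterisk, with 1 such probe left out by the same rule. This gave 240 of the 678 rat miRNA probes on the array, each printed as 4 spots. A probe for the guide strand of the same gene was found for 238 of them, and these 238 share 222 guide probes because gene copies can share a guide.

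TAC narrows the aortic arch, so that the left ventricle pumps against a higher pressure and thickens. RNA came from the hearts of male SD rats that were 6 to 8 weeks old, without any genetic change named in the labels, and was labelled with the dye Hy3 and hybridized to 1-colour arrays. There were 5 groups of 1 array each: sham surgery, labelled as 5 days after the operation (the header of its data column carries day 15), and TAC at 5, 10, 15 and 20 days. The RNA on each array came from the hearts of 5 rats, so no array shows how single hearts differ and no test between groups could be made. The SE given with a log2 ratio is the technical error over the 4 spots on each of the arrays compared.

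A miRNA gene is transcribed as a hairpin whose stem is cut into a short duplex. The guide strand of the duplex is usually kept by an Argonaute protein and directs it to messenger RNAs with a match to its seed, and the star strand is usually degraded. For some genes both strands are kept, and the share of each can differ between tissues. Heart muscle is known for miR-1, miR-133a and the miRNAs encoded within myosin heavy chain genes, miR-208 and miR-499.

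The sequences below show strands on which the results turn, with the seed (bases 2 to 8) in capitals. They are RefSeq mature sequences of the GRCr8 rat assembly, 5′ to 3′, matched by name; sequences were found for 36 of the 38 star strands looked up, and miR-30e* and let-7c-1* are given by name only. The first set holds both strands of heart genes, to show that the star of a gene has another seed than its guide. The stars miR-24-1* and miR-24-2* share the seed UGCCUAC and the 16-base run GUGCCUACUGAGCUGA, and come from separate copies of a gene with the same guide.
miR-133a*: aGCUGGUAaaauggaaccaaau
miR-133a: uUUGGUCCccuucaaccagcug
miR-499*: aACAUCACagcaagucugugcu
miR-499: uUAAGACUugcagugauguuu
miR-208*: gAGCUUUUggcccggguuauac
miR-208: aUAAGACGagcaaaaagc
miR-24-1*: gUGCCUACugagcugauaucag
miR-24-2*: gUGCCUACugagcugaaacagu
miR-24: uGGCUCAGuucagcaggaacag
miR-22*: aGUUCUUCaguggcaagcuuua
miR-22: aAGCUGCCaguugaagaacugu
miR-378*: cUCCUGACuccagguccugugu
miR-378: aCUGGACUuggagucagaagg

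The second set holds star strands that were bright although their guide was not, and those that stood farthest above sham on the TAC day 5 array. The stars of both copies of miR-138 differ in their seeds and share the 9-base run ACACCAGGG near their 3′ ends. The stars miR-331* and miR-653* come from different chromosomes, have different seeds and share the 9-base run GGGUUUGUU. Each of these runs is held by 2 of the 692 distinct RefSeq mature sequences (0.289%). A run shared by 2 stars has at least 2 holders, so this share does not measure how rare a shared run is.
miR-138-1*: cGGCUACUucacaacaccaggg
miR-138-2*: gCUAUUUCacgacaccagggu
miR-138: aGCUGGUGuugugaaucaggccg
miR-433*: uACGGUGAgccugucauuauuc
miR-433: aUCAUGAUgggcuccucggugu
miR-134*: cUGUGGGCcaccuagucaccaa
miR-363*: cGGGUGGAucacgaugcaauuu
miR-331*: gGUCUUGUuuggguuuguu
miR-331: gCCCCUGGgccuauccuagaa
miR-653*: uUCACUGGgguuuguuucacua

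In GRCr8, miR-133a* lies on the minus strand at chr18:2157923-2157944 in Mir133a1. The sequence of miR-331* lies on the minus strand at chr7:30414457-30414475 in Mir331, and that of miR-653* on the minus strand at chr4:32647417-32647438 in Mir653. The copies of miR-138* are at chr8:131178494-131178515 on the plus strand (Mir138-1) and at chr19:10680139-10680159 on the minus strand (Mir138-2). The copies of miR-24* are at chr17:1818710-1818731 (Mir24-1) and chr19:40859517-40859538 (Mir24-2), both on the minus strand.

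All 6 heart markers (miR-1, miR-133a, miR-133b, miR-208, miR-208b-3p and miR-499) were above the detection floor on all 5 arrays, with a summed background-subtracted signal of 106131 to 152647 units, and the liver marker miR-122 was below it on all 5. Markers of other tissues were not all dark: the pancreatic islet marker miR-375 had 22 units on sham and 302.5, 400.0, 83.8 and 87 units on TAC days 5 to 20, and the nervous system marker miR-124 had 81.2 units and then 243, 429, 147 and 196 units. The floor was the median plus 3 scaled median absolute deviations of the empty and negative-control spots, 30.6 units on sham and 72.1, 46.4, 46.4 and 28.1 units on TAC days 5, 10, 15 and 20. The TAC day 5 array had the highest median background of the 5 arrays and the TAC day 20 array the lowest, at 101 units. Spike-in RNAs were dimmer than on sham, at log2 ratios of -2.31, -1.66, -0.61 and -0.42 over days 5 to 20 before scaling. The 4 spots of a probe were least alike on days 10 and 15: the median probe was 0.95 and 0.66 (log2) brighter in blocks 19 to 36 of the slide than in blocks 1 to 18 there, against 0.13, 0.17 and 0.30 on sham, day 5 and day 20. The erythroid markers miR-144 and miR-451 summed to 19712 units on sham and to 1144, 5942, 20050 and 18683 units over days 5 to 20, and the 4 leukocyte markers to 10765 units and to 4950, 7513, 13998 and 15276 units. The part of these differences in the star strand results was not tested.

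Most star strands gave no signal in heart. On the sham array 68 of 240 (28.3%) were above the floor, and on TAC days 5, 10, 15 and 20 there were 45, 60, 58 and 75. Of the other 437 rat probes, 167 were above the floor on sham and 116, 148 and 181 on days 5, 15 and 20. The day 5 array had the highest floor and the fewest probes above it in both sets. A total of 40 star strands (16.7%) were above the floor on all 5 arrays, 83 on at least 1 array and 157 (65.4%) on none. Of the other probes, 102 (23.3%) were above it on all 5 and 248 (56.8%) on none, so most of them gave no signal either.

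A bright guide was not always matched by a measurable star. Of the 80 star strands whose guide was above the floor on all 5 arrays, 17 (21.2%) were above it on all 5 as well, 18 on 1 to 4 arrays and 45 on none. Among the 59 whose guide was above the floor on 1 to 4 arrays, 9 were above it on all 5, 10 on some and 40 on none. Of the 99 star strands whose guide was above the floor on no array, 14 (14.1%) were nevertheless above it on all 5, 14 on some and 71 on none. This grouping by guide was chosen after the values had been seen. Whether a star probe with a dark guide read the star strand itself was not tested.

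The brightest star strands on the sham array included those of genes known from heart muscle. The star of miR-133a, which represses genes of growth and of smooth muscle in the heart, had 4696 units on sham and 952, 3374, 3300 and 3262 units on TAC days 5, 10, 15 and 20. That is, sham was the brightest array and day 5 the dimmest, with no spot on day 5 (727 to 1131 units) near those on sham (4555 to 4944 units). The star of miR-30e had 4124, 454, 932, 3139 and 3375 units in the same order, again with the lowest mean on day 5. In blocks 1 to 18 its log2 ratio to sham was -1.75 on day 5 and -2.42 on day 10. In blocks 19 to 36 it was -2.11 and -1.41.

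The star of miR-499, encoded in the myosin gene Myh7b, had 2954, 1614, 1593, 2784 and 2875 units. Its means on days 5 and 10 were lower than on the other arrays. On day 10 its log2 ratio to sham was -1.55 in blocks 1 to 18 and -0.17 in blocks 19 to 36. The star of miR-208, which lies in an intron of the myosin gene Myh6, had 1363, 250, 985, 965 and 838 units. Of the list of muscle and myosin genes, these 3 of 6 star strands were above the floor, each on all 5 arrays.

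The copies of miR-24, a guide present in muscle, endothelium and other cells, gave stars that differed in their course although they share most of their sequence. The star miR-24-1* had 2076, 1778, 2797, 1896 and 1613 units. The star miR-24-2* had 1741, 276, 726, 940 and 1096 units, so its mean was lowest on day 5. In blocks 1 to 18 its log2 ratio to sham was -1.58, -2.25 and -2.17 on days 5, 10 and 15. In blocks 19 to 36 it was -1.23, -0.42 and 0.18. The log2 ratio to sham on day 5 was 0.20 ± 0.07 (SE over spots) for miR-24-1* and -1.41 ± 0.21 for miR-24-2*, the latter above 0 with spike-in scaling. The shared guide miR-24 had 16650, 3680, 10518, 16069 and 13881 units.

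Among the other stars with a bright guide, miR-22* had 1073, 121, 816, 849 and 840 units and miR-378*, from an intron of the metabolic regulator gene Ppargc1b, had 739.8, 89.8, 556 and 722 units on sham and days 5, 10 and 20, with day 15 between the last pair. Both had their lowest mean on day 5, and the means of their 3 later arrays lay closer to sham. In blocks 1 to 18 the log2 ratio to sham on days 5 and 10 was -1.44 and -1.74 for miR-22*. For miR-378* it was -1.07 and -1.82 there, so day 10 was farther from sham than day 5 in these blocks. In blocks 19 to 36 the ratios were -1.57 and 0.36 for miR-22*, and -1.34 and 0.43 for miR-378*. The star miR-21*, whose guide is known to rise in stressed hearts and in cardiac fibroblasts, was dim, with 108, 101, 60.8, 156 and 291 units.

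**Figure D1:**
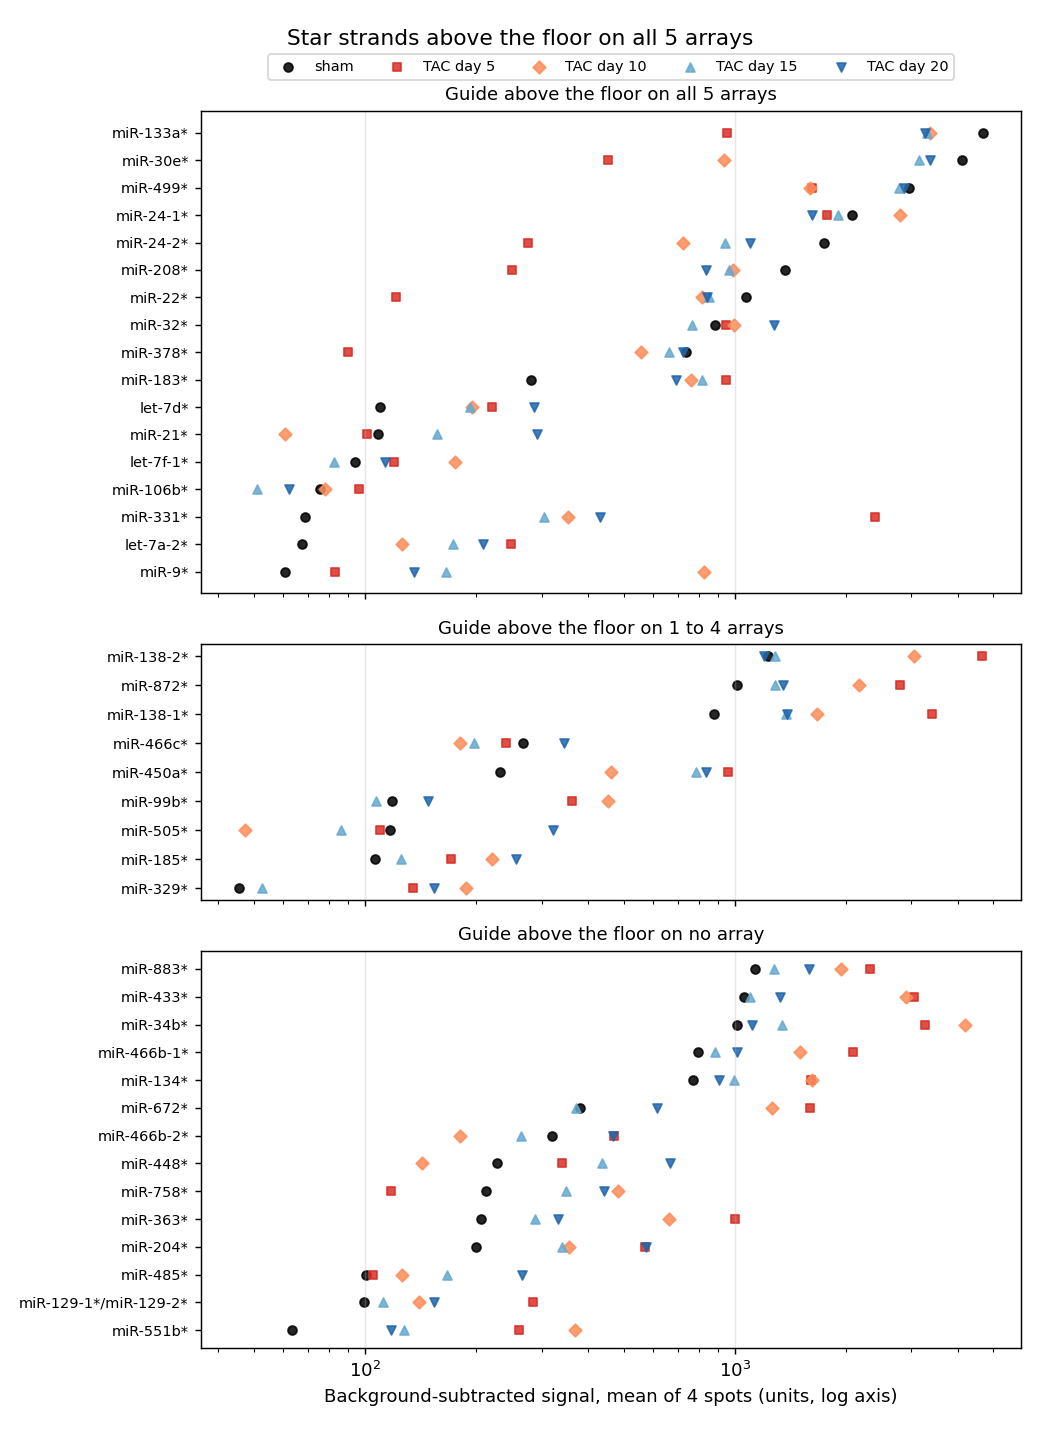
Background-subtracted signal (mean of 4 spots, log axis) of the 40 star strands above the floor on all 5 arrays, with 1 point per array, in 3 panels by the number of arrays on which the guide strand was above the floor. The day 5 points of miR-133a*, miR-30e*, miR-24-2*, miR-208*, miR-22* and miR-378* lie far left of the sham points, while those of most stars with a dark guide lie to the right.

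The 14 stars with a dark guide on all 5 arrays included miR-134*, miR-433*, miR-485* and miR-758* of the imprinted Dlk1-Dio3 region, miR-129-1*/miR-129-2* (a shared probe) and miR-34b* of the nervous system list, and miR-466b-1*, miR-466b-2* and miR-883* of the rodent repeat clusters. The star miR-433* had 1055 units on sham and 3060, 2896, 1098 and 1326 units on TAC days 5, 10, 15 and 20, while its guide was at -36.8 units on sham, below background. The star miR-34b*, of a p53-responsive cluster, had 1012, 3261, 4194, 1338 and 1113 units. The star miR-134* had 770 units on sham and 1610, 1618, 992 and 904 units after TAC. These 3 were brighter on days 5 and 10 than on the other arrays.

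The stars miR-138-2* and miR-138-1*, of a guide known for its work in neurons and in the developing zebrafish heart, had 1229 and 876 units on sham. They had 4665 and 3412 units on day 5, 3045 and 1668 on day 10, 1284 and 1371 on day 15, and 1198 and 1382 on day 20. Their guide was above the floor on day 20 alone, at 45 units. The star miR-883* had 1134, 2324, 1932, 1272 and 1584 units, and miR-466b-1*, from a repeat cluster of rodents, had 796, 2090, 1497, 884 and 1014 units. Both were brightest on day 5.

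By the lists of guide families, 6 of 10 let-7 stars, 5 of 9 stars of miR-30 and miR-29, 7 of 16 stars of genes known from the nervous system and 9 of 35 stars of the Dlk1-Dio3 region were above the floor on at least 1 array. The miR-17/92 and miR-106b/25 clusters, known for their part in proliferation, gave 1 of 10 (miR-106b*), the family of miR-15 and miR-16 gave 1 of 4, and the genes of erythroid and leukocyte cells 1 of 6 (miR-144*). Over all star strands the count was 83 of 240 (34.6%), and over all rat probes 273 of 678 (40.3%). Nothing particular to a list is read from these counts. The stars let-7b*, let-7e*, let-7f-2*, miR-125b*, miR-214*, miR-27a*, miR-27b* and miR-29b-1* were above the floor on no array. For miR-29b-1* the matched guide probe had 13108 units on sham and the star -21.2 units, so the guide probe was bright where the star could not be measured. Gene copies can share a guide probe, so its signal need not come from this copy. The star miR-144* was above the floor on sham (34.5 units) and day 20 (70.8 units) only.

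Star and guide were set side by side as brightness, which is not an amount, since probes differ in how well they bind. On sham, 44 of 238 pairs had both strands above the floor, 23 the star alone and 85 the guide alone. Where both were above the floor the guide was brighter in all but 6, with a median of 9.20 times the star's signal. On TAC days 5, 10, 15 and 20 both strands were above the floor in 19, 33, 32 and 48 pairs, the star was brighter in 5, 9, 7 and 12 of them, and the guide's median signal was 9.85, 7.34, 5.83 and 7.79 times that of the star.

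The guide of miR-133a* had 30006 units on sham, and the guides miR-30e, miR-499 and miR-378 had 12368, 8296 and 13394 units. The guide miR-22 had 65142 units with 3 of 4 spots at the scanner's ceiling of 65535 units, and miR-208 had 56953 units with 1 spot there, so their ratios to other arrays are limited. Among pairs with a brighter star were miR-32* (884 units on sham against 569 for its guide), miR-183* (281 against 111) and miR-140* (979 against 864). In these pairs the strand named as the star gave the brighter spots on sham.

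**Figure D2:**
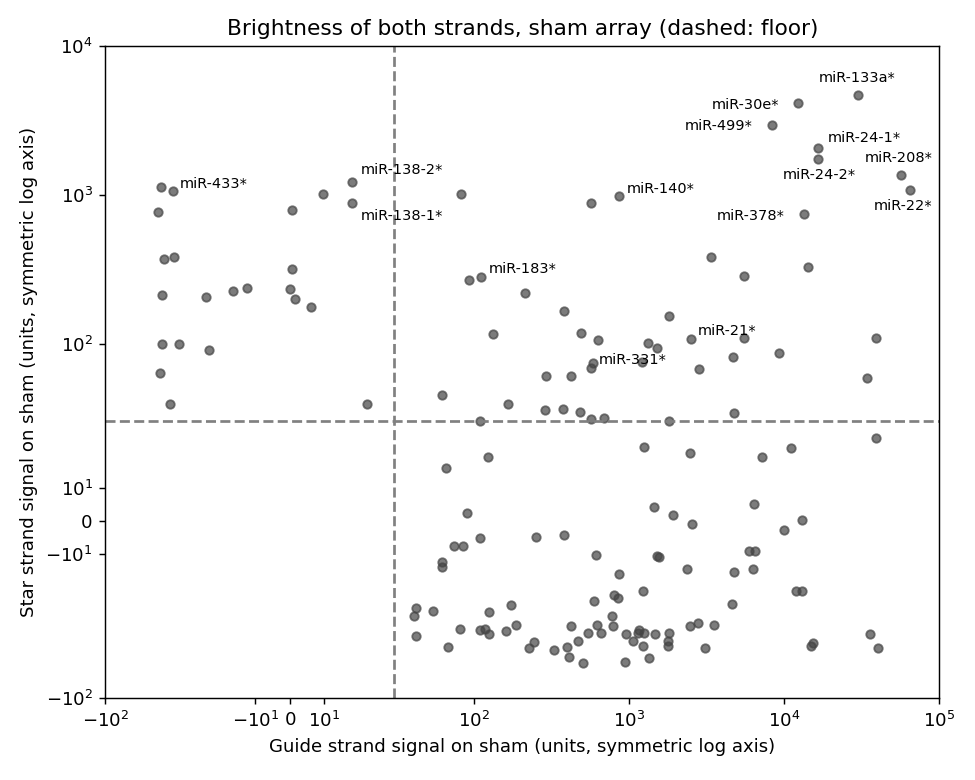
Signal of the star (vertical) against that of its guide (horizontal) on the sham array, for pairs with at least 1 strand above the floor (dashed lines), on axes that are logarithmic away from 0. The 44 pairs in the upper right have both strands above the floor, the 23 in the upper left the star alone and the 85 at the lower right the guide alone.

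The TAC day 5 array differed most from sham. Of the 43 star strands above the floor on both arrays, 29 were at 2-fold or more from sham, 23 higher and 6 lower. Over all rat probes above the floor on both, 67.8% were at 2-fold or more, 41.4% higher and 26.3% lower, so the share of stars at 2-fold (67.4%) was near that of all probes. The median log2 ratio of the stars was 1.06, against 0.56 for all rat probes. The floor of day 5 was higher than that of sham. A star that was dim on sham thus entered this comparison only where it was brighter on day 5. There were 25 stars above the floor on sham alone and 2 on day 5 alone. On sham, on day 5 and on both, 68, 45 and 43 stars were above the floor. For the other rat probes these counts were 167, 116 and 108, so nothing particular to stars is read from the loss. The median and the split into higher and lower stars therefore describe the 43 stars that passed both floors and not all star strands. For all 29 stars the 4 spots on day 5 lay apart from those on sham, as they did for 78.9% of all the probes. Among rat probes at 2-fold or more they did so for 62 of 63 higher and 36 of 40 lower ones. Here and below, overlap was judged on spots after background correction and scaling. In background-subtracted units spots can overlap, as for let-7d*, with 53 to 156 units on sham and 96 to 288 on day 5.

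The direction of a ratio depends on the scaling, here quantile scaling over the rat probes. Scaling on 47 spike-ins shifted the ratios of all rat probes by a median of 1.98, 2.06, 0.95 and 0.66 (log2) on days 5, 10, 15 and 20, and quantile scaling over every non-control probe by -0.71, -0.31, -0.22 and -0.16. Ratios are therefore given relative to the rat probes as a whole.

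The 6 stars at 2-fold or more below sham on day 5 all had a guide above the floor on all 5 arrays. The star miR-30e* was lower by a log2 ratio of -1.93 ± 0.12 (SE over spots), and it was below sham with every scaling tried, though by less than 2-fold with spike-in scaling. The stars miR-22* (-1.50 ± 0.12), miR-133a* (-1.48 ± 0.09), miR-24-2* (-1.41 ± 0.21), miR-208* (-1.26 ± 0.15) and miR-378* (-1.21 ± 0.12) were lower too, but with spike-in scaling their log2 ratios were above 0, at 0.67, 0.35, 0.51, 0.78 and 1.01. All 6 were at 2-fold or more lower in each set of slide blocks.

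The largest ratio of any star was that of miR-331*, which had 68.8, 2392, 355, 305 and 432 units over sham and days 5, 10, 15 and 20. Every TAC array was above sham, and day 5 far above the rest, with a log2 ratio of 3.72 ± 0.49 on day 5. Its spots on day 5 fell into a pair at 1074 and 1287 units in blocks 1 to 18 and a pair at 3363 and 3845 units in blocks 19 to 36, and the log2 ratio was 2.89 and 4.55 in these block sets.

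The stars miR-138-2* (2.66 ± 0.16), miR-138-1* (2.33 ± 0.11), miR-539* (2.17 ± 0.16) and miR-363* (2.14 ± 0.17) followed. The star miR-539*, from the Dlk1-Dio3 region, had 39.8 units on sham, 411.5 on day 5 and 30.2, 12.8 and 69.2 units on days 10, 15 and 20, so only its day 5 array stood out. The star miR-363*, of the miR-106a cluster on chromosome X, had 206.2, 998, 288 and 333 units on sham and days 5, 15 and 20, with day 10 between days 5 and 15. Its log2 ratio was 1.33, 0.47 and 0.24 on days 10, 15 and 20, so after scaling it was closer to sham on each later array. All 4 were at 2-fold or more higher in both block sets.

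A further star could be given only as a bound. The star miR-653* was at -4.75 units on sham and 1071 units on day 5 (spots of 969 to 1154 units), then at 7.25, 33.8 and 75 units on days 10, 15 and 20. It was at least 8.76-fold higher on day 5 than on sham, with sham taken at its dimmest probe above the floor. This and miR-331*, which shares the run shown above, were the day 5 array's highest stars against sham. Whether the shared run has a part in their signal was not tested. In the other direction miR-140*, known from cartilage, had 979 units on sham and -38 on day 5, at least 3.50-fold lower, and 540, 578 and 710 units on days 10, 15 and 20.

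**Figure D3:**
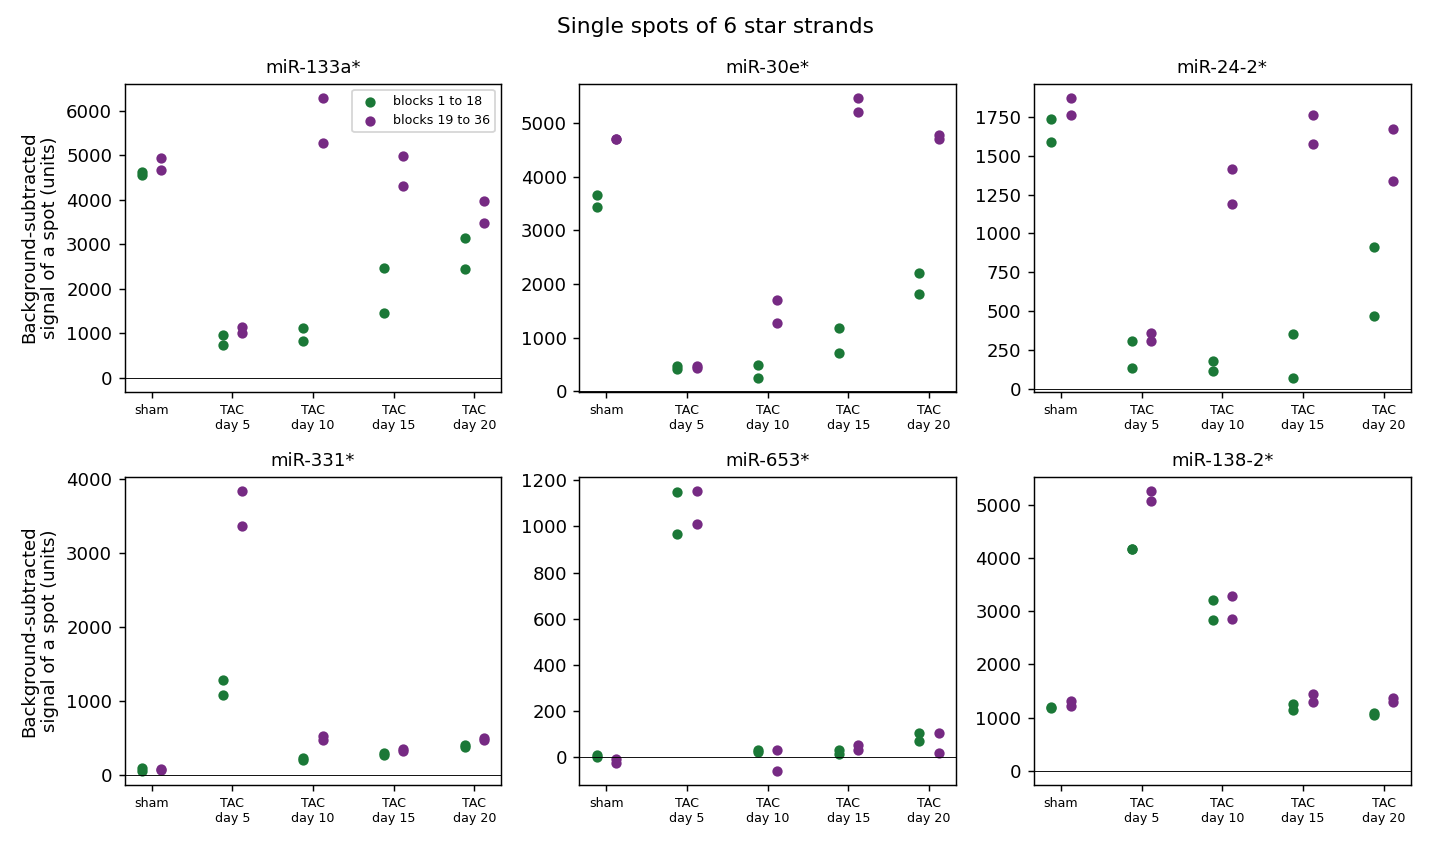
Background-subtracted signal of each of the 4 spots of 6 star strands on each array, on linear axes, coloured by slide block (1 to 18 or 19 to 36). For miR-133a*, miR-30e* and miR-24-2* blocks 19 to 36 lie farther above blocks 1 to 18 on days 10 and 15 than on sham and day 5, though those of miR-30e* also differ by 0.38 (log2) on sham and those of miR-24-2* by 0.45 on day 5. The day 5 spots of miR-331* split by block, those of miR-138-2* differ by 0.54 and those of miR-653* interleave.

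On TAC day 10, 14 of 52 star strands were at 2-fold or more from sham, 11 higher and 3 lower, against 29.4% of all 197 rat probes, 13.7% higher and 15.7% lower. The stars' median log2 ratio was 0.36 and that of all rat probes -0.01, and on days 15 and 20 the medians were 0.20 and 0.11 against -0.01 and -0.08. The spots did not overlap for all 11 higher stars and 2 of the 3 lower ones, which held for 39.6% of all the probes. Among rat probes at 2-fold or more it held for 26 of 27 higher and 19 of 31 lower ones. Highest were miR-34b* (1.87 ± 0.24), miR-9* (1.62 ± 0.77), miR-672* (1.47 ± 0.44), miR-551b* (1.41 ± 0.15) and miR-433* (1.40 ± 0.13). The star miR-9*, of a gene known from the nervous system, had 60.8, 83, 824, 165 and 135.8 units over sham and days 5 to 20, and its day 10 log2 ratio was 0.39 in blocks 1 to 18 and 2.85 in blocks 19 to 36.

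The 3 stars lower on day 10 were miR-30e* (-1.91 ± 0.45), miR-24-2* (-1.34 ± 0.56) and miR-140* (-1.19 ± 0.73). With spike-in scaling miR-24-2* was at 0.70 and miR-140* at 0.96, and in blocks 19 to 36 alone miR-140* was at 0.01. By blocks 1 to 18 and 19 to 36, miR-30e* was at -2.42 and -1.41, and miR-24-2* at -2.25 and -0.42. Of the 14 stars, 9 were at 2-fold or more in both block sets, 8 higher and miR-30e* lower. Bounds added miR-483*, which was at 19.2 units on sham and 237 on day 10 and at least 2.51-fold higher, and miR-29a*, at 326 and 3 units and at least 2.05-fold lower, although its sham spots ran from 63 to 559 units.

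On TAC day 15, 5 of 53 star strands were at 2-fold or more from sham, all higher, against 7.46% of all 201 rat probes, 4.98% higher and 2.49% lower. The spots of all 5 did not overlap, which held for 25.4% of all the probes. Among rat probes at 2-fold or more it held for 9 of 10 higher and 1 of 5 lower ones. All 5 stars were at 2-fold or more in both block sets. They were let-7c-1* (1.84 ± 0.19), miR-181a-2* (1.43 ± 0.18), miR-450a* (1.29 ± 0.09), miR-183* (1.19 ± 0.07) and miR-331* (1.10 ± 0.07). The star let-7c-1* had 101, 23.8, 123.8, 775 and 297 units over sham and days 5 to 20, and miR-181a-2*, of a guide known from lymphocytes and muscle, had 154.8, 36.2, 90.8, 686 and 308 units. Both were brightest on day 15. A bound added miR-221*, at 19.5 units on sham and 266 on day 15, at least 2.37-fold higher.

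On TAC day 20, 2 of 64 star strands were at 2-fold or more, both higher: miR-450a* (1.29 ± 0.11) and miR-331* (1.11 ± 0.09). Over all 231 rat probes the share was 1.73%, with 1.3% higher and 0.433% lower. The spots of both stars lay apart from sham, as did those of 34.2% of all the probes. Among rat probes at 2-fold or more they lay apart for 3 of 3 higher and 1 of 1 lower ones. The star miR-450a*, from a cluster on chromosome X, had 232, 960, 461, 783 and 836 units over sham and days 5 to 20, and miR-183*, of a sensory-organ cluster, had 281, 948, 763, 812 and 691 units. These stars and miR-331* were above sham on every TAC array, as were other stars, among them miR-138-1* and miR-872*.

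Over the 40 star strands on all 5 arrays, the highest of the TAC arrays was day 5 for 28, day 10 for 4, day 15 for 2 and day 20 for 6. The lowest was day 20 for 16, day 15 for 10, and days 5 and 10 for 7 each. These 40 had to pass the floor of day 5, the highest, so stars that were dim on that array are not among them. The largest log2 ranges over the TAC arrays were those of miR-138-2* (2.70), miR-331* (2.62), miR-34b* (1.91), miR-363* (1.90) and miR-30e* (1.86). The first 4 were highest on day 5 and miR-30e* was lowest there.

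The same 40 stars were grouped by their guide. The 14 stars whose guide was above the floor on no array had a median log2 ratio of 1.46, 0.82, 0.44 and 0.34 on days 5, 10, 15 and 20, with 12 at 2-fold or more higher and 0 lower on day 5, 6 higher and 0 lower on day 10, and 0 on days 15 and 20. Over all rat probes 41.4% were at 2-fold or more higher and 26.3% lower on day 5, and 13.7% and 15.7% on day 10. All 3 classes hold only stars that passed the high floor of day 5, so these counts describe those stars alone. The day 5 median of the 14 stars was 0.78 when every non-control probe entered the quantile scaling and 3.65 with spike-in scaling. The 9 stars whose guide was above the floor on 1 to 4 arrays had medians of 1.51, 0.91, 0.20 and 0.38, which became 0.80, 0.59, 0.05 and 0.26 when every non-control probe entered the quantile scaling, and 3.67, 3.01, 1.34 and 1.20 with spike-in scaling. The 17 stars whose guide was above the floor on all 5 arrays had medians of 0.45, 0.15, 0.03 and -0.08, which became -0.10, -0.12, -0.17 and -0.20 when every non-control probe entered the quantile scaling, and 2.61, 2.27, 0.92 and 0.56 with spike-in scaling. On day 5 this last class held 4 stars at 2-fold or more higher and the 6 lower ones, with values from -1.93 to 3.72.

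**Figure D4:**
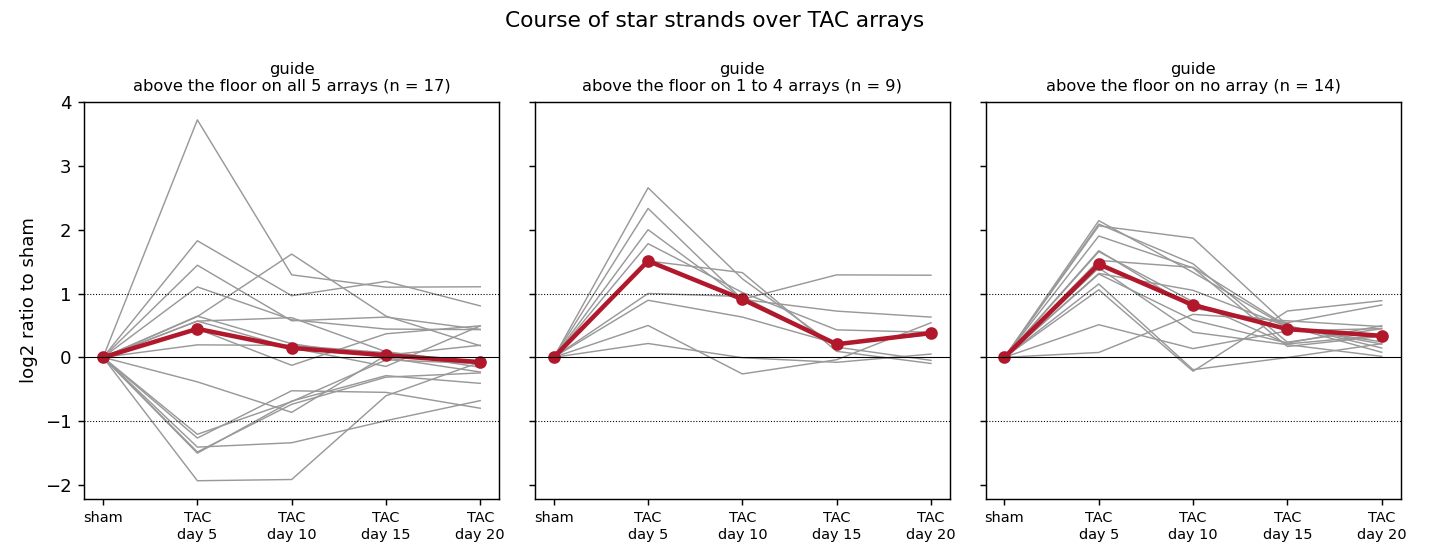
Log2 ratio to sham (vertical) of the 40 star strands above the floor on all 5 arrays, over sham and TAC days 5, 10, 15 and 20, in 3 panels by guide; grey lines are single stars, the red line their median and dotted lines 2-fold. With a guide above the floor on no array the median is 1.46 on day 5 and 0.34 on day 20; with a guide on all 5 arrays stars lie from -1.93 to 3.72 on day 5, and the median changes sign with the scaling.

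On days 10 and 15 the unevenness of the slide was larger among the stars with a bright guide. On day 10 the 17 stars with a guide above the floor on all 5 arrays had a median log2 difference of 1.29 between blocks 19 to 36 and blocks 1 to 18, with 10 of them brighter in the former by 2-fold or more. On the same array the 14 stars with a guide on no array differed by a median of 0.32, with 3 at 2-fold or more, and the 9 with a guide on 1 to 4 arrays by 0.04. On day 15 the medians were 0.99, 0.26 and 0.20 in the same order, with 8, 0 and 0 stars at 2-fold or more. On sham they were 0.10, 0.12 and 0.07, on day 5 0.18, 0.23 and 0.40, and on day 20 0.38, 0.18 and 0.12.

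The same gap between block sets was seen in the guides. The 16 guide strands of the first class differed between block sets by 1.04 on day 10 and 0.98 on day 15. For miR-133a* the day 10 spots had 1109 and 825 units in blocks 1 to 18, and 5267 and 6295 units in blocks 19 to 36, so its log2 ratio to sham was -1.88 in the first set and 0.41 in the second. For miR-138-2* the ratio was 1.28 and 1.18. The part of this unevenness in the course of single stars on days 10 and 15 was not tested; on day 5 the 6 low stars were low in both sets.

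Each strand was then set against itself on sham, and the star's log2 ratio was compared with the guide's. Background correction with an offset shrinks the ratios of dim probes more than those of bright ones, so a dim star and a bright guide are not fully comparable even as ratios. On TAC day 5, 10 of 19 pairs (52.6%) differed by 2-fold or more, with the star above the guide in 6 and below it in 4. Among pairs of strands named 5p and 3p, 1 of 3 (33.3%) did so. On days 10, 15 and 20 the counts were 9 of 29 (31%), 5 of 30 (16.7%) and 1 of 41 (2.44%), and 0 of 3, 0 of 3 and 0 of 4 for the 5p and 3p pairs. Across star and guide pairs, which share the same arrays, Pearson's r of the ratios was 0.33, 0.33, 0.36 and -0.04 on days 5, 10, 15 and 20.

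The widest difference was that of miR-331*. On day 5 its log2 ratio was 3.72 and that of its guide -0.94, a difference of 4.66 ± 0.53 (SE over spots), and on days 10, 15 and 20 the difference was 1.33 ± 0.63, 1.57 ± 0.60 and 1.36 ± 0.25. It was the only pair that differed by 2-fold or more on all 4 TAC arrays. The guide had 569.5 units on sham and 91.2, 680, 423 and 527 units after TAC. On day 5 the guide was thus little above the floor of 72.1 units, so its ratio is limited. The star had 68.8 units on sham, where the floor was 30.6 units. The SE over spots does not include these limits. By block set the star's day 5 log2 ratio was 2.89 and 4.55, as given above.

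Within the muscle genes the strands differed in their ratios to sham. For miR-133a the star's day 5 log2 ratio was -1.48 and the guide's 1.32, a difference of -2.80 ± 0.14, and on day 10 the difference was -1.66 ± 0.73. For miR-208 the star was at -1.26 on day 5, and the guide's ratio is limited because 1 of its sham spots was at the scanner's ceiling. For miR-499 both strands were below sham, the guide at -2.48 against -0.38 for the star on day 5 (difference 2.10 ± 1.12) and -1.96 against -0.86 on day 10 (1.10 ± 0.90). Both miR-499 differences are under 2 SE. For miR-378 both strands were below sham on day 5 as well, the guide at -3.37 and the star at -1.21 (difference 2.16 ± 1.01).

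For miR-21 the guide was above the star, with 1.70 against 0.45 on day 5 and 1.03 against -0.13 on day 10, and by day 20 the strands were at 0.44 and 0.49. Pairs with the star above the guide on day 5 also included miR-106b* (difference 1.96 ± 0.19), miR-32* (1.62 ± 0.07) and miR-24-1* (1.28 ± 0.18). The guide miR-32 had 72.25 units on day 5, at the floor of 72.06 units, so its ratio is limited. The SE over spots does not include this limit. Pairs with the star below were miR-133a*, let-7f-1* (-1.80 ± 0.42), miR-21* (-1.25 ± 0.30) and miR-208* (-1.57 ± 0.19, with the guide limited by the ceiling on sham). Of the copies of miR-24, then, miR-24-1* was above the shared guide on day 5, and miR-24-2* was within 2-fold of it (-0.33 ± 0.26).

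On day 10 the star was above the guide for miR-99b* (1.93 ± 0.52), miR-181a-2* (1.61 ± 0.64), miR-9* (1.56 ± 0.80), miR-331* and miR-499*, and below it for let-7c-1* (-2.56 ± 0.83), miR-30e* (-1.68 ± 0.58), miR-133a* and miR-21* (-1.16 ± 0.50). On day 15 miR-181a-2* (1.94 ± 0.64), miR-331*, miR-183* (1.25 ± 0.13) and miR-9* (1.06 ± 0.22) were above and miR-24-2* (-1.21 ± 0.82) below. The differences of miR-9* on day 10 and of miR-24-2* on day 15 are under 2 SE. For let-7c-1* on day 15 both strands were above sham to a like degree, the star at 1.84 and the guide at 1.91.

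**Figure D5:**
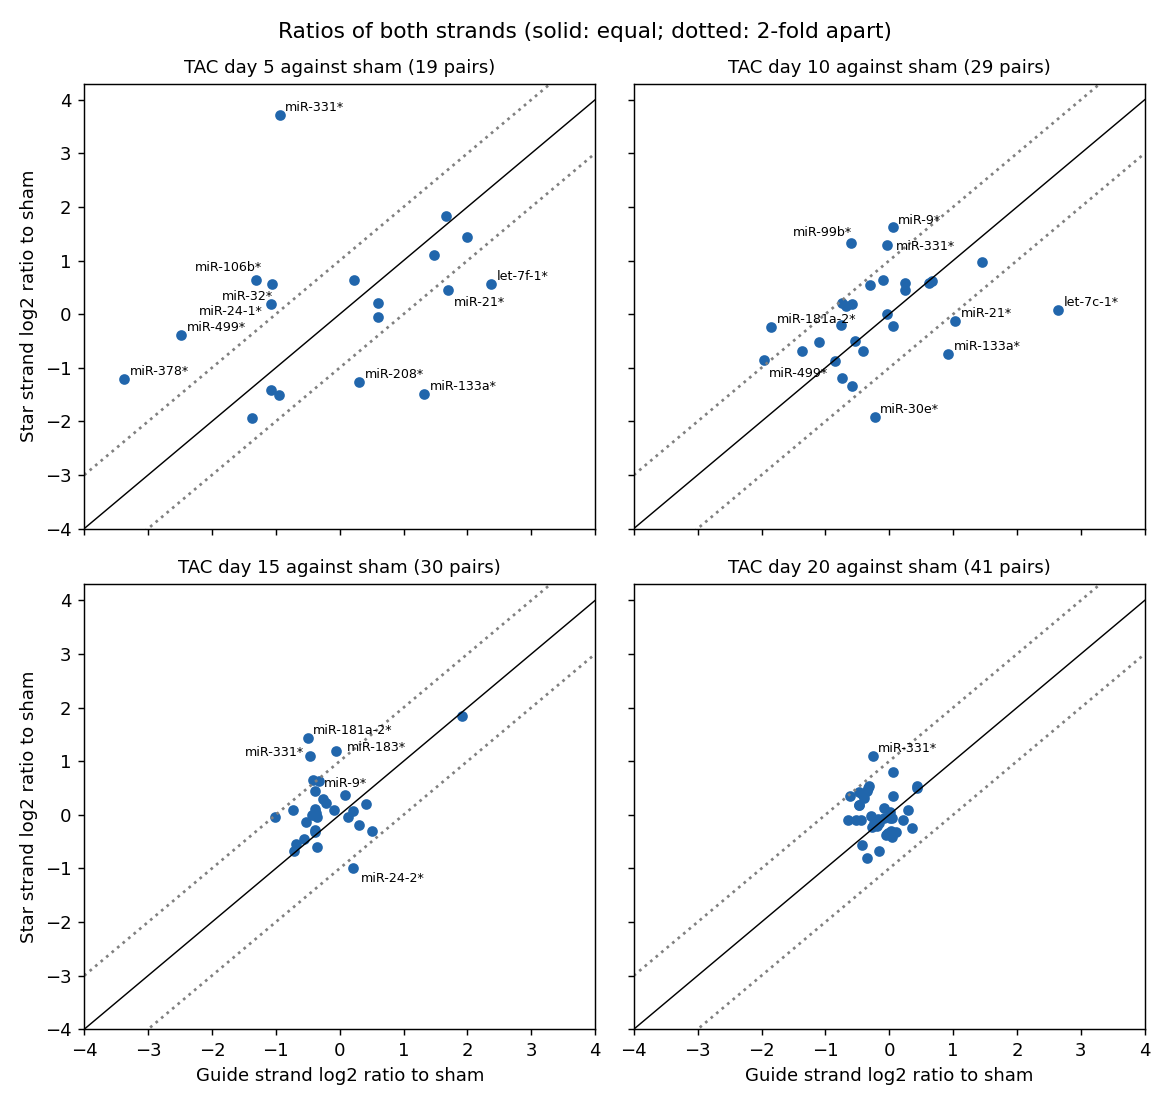
Log2 ratio to sham of the star (vertical) against that of its guide (horizontal) for pairs with both strands above the floor on sham and on the TAC array, in 1 panel per TAC array, with the line of equality (solid) and 2-fold differences (dotted). Named pairs lie outside the dotted lines: 10 of 19, 9 of 29, 5 of 30 and 1 of 41 pairs over the TAC arrays in order of time.

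By list, the 3 muscle and myosin stars had a median log2 ratio of -1.26 on day 5, with 0 higher and 2 lower at 2-fold or more, and -0.74, -0.31 and -0.24 on days 10, 15 and 20, each smaller in size than the spike-in shift of that day given above, and with spike-in scaling both of the lower stars were above sham on day 5. The 5 stars of genes known from the nervous system that were above the floor on both arrays had medians of 2.06, 1.23, 0.50 and 0.15, with 4 at 2-fold or more higher on day 5 and 3 on day 10. The marker miR-124 had more units on the TAC arrays than on sham as well, with the values given above, while the 4 nervous system markers summed to 318 units on sham and to 279, 611, 179 and 384 units over days 5 to 20, with miR-129 and miR-219-5p above the floor on no array. The part of nervous tissue in these stars was not tested. Of 6 Dlk1-Dio3 stars on both arrays, 4 were at 2-fold or more higher on day 5 (median 1.16), and of 4 stars of the rodent repeat clusters 3 were (median 1.23). On day 5, 41.4% of all rat probes and 23 of 43 stars were at 2-fold or more higher, with a median of 0.56 over all rat probes, and on day 10 13.7% and 11 of 52. With 4 to 6 stars a list, nothing particular to a list is read from these counts.

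Among the let-7 stars, whose guides are known for repressing growth genes, 2 of 3 were at 2-fold or more higher on day 5, against 41.4% of all rat probes and 23 of 43 stars. These were let-7a-2* (67.5 units on sham and 248, 126, 173 and 208.5 units after TAC; log2 ratio 1.44 ± 0.18) and let-7d* (109.5 and 220.5 units; 1.10 ± 0.24), the latter with a log2 ratio of 0.77 from its spots in blocks 1 to 18 and of 1.44 from the others. The third, let-7f-1*, was at 0.57 ± 0.36. For let-7a-2* and let-7d* the guides were higher on day 5 too, at 2.00 and 1.48.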

How the data were processed

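The deposited raw table gives foreground and background-subtracted intensity for 12312 spots and 5 arrays, not normalized between arrays, per the file headers. Neither scanner nor image software is named in the labels or headers used here. From its values, the authors' second table holds ratios, in which the median background-subtracted signal of a probe is divided by a constant set for its array (1036.5, 733, 1036.5, 991 and 1074.5 for sham and TAC days 5 to 20). The largest relative deviation was 6.89e-07. The deposited ratios are linear and not centred, with medians of 0.192, 0.360, 0.243, 0.284 and 0.182, blank at or below 0. How the constants were set is not stated in the labels or headers used here. The header of the sham data column carries day 15, while the label says 5 days. The column was taken as sham because dividing it by 1036.5 gives the sham column of the authors' second table, and the day was not settled.

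Here foregrounds were background-corrected (normexp, offset 50), quantile scaled over the rat spots, and averaged over 4 spots on the log2 scale (limma 3.58.1, R 4.3.3). Tables were made with pandas 2.3.3 and numpy 2.4.6 in Python 3.11.15. Offset and scaling shrink the ratios of dim probes. No test was made, since each group has 1 array, and 2-fold means an absolute log2 ratio of at least 1 among probes above the floor on both arrays. The number of arrays limits the precision. The guide of miR-X* was the probe miR-X, and of a copy miR-X-n* the probe miR-X-n where measured; star arms in RefSeq were chosen from general knowledge. A bound set the brighter array's mean against the higher of the dim probe's own value and the dimmest probe above the floor.

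Members and lists were chosen with earlier results of these data known. By rule, the text names stars above the floor on all 5 arrays, up to 5 per direction at 2-fold or more whose spots do not overlap, up to 5 bounds and 5 pairs per direction, the 5 largest TAC ranges and a list of names. The calling of 2-fold ratios was run on simulated spots, drawn with normal noise around the sham values. These left out background correction, scaling, the floor and slide unevenness, so the run could not test those steps. Alternatives were 3 other scalings, plain and no background correction, the median of spots, each block set, no floor or a floor on every spot, and the authors' values.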

Additional observations from a re-analysis of the deposited data

How the results depend on the processing

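No paired analysis was possible because no group had over 1 array, and none could be left out. Under the alternatives tried, with the same star strands compared, 1383 recomputed ratios of named stars moved by less than 2 SE over spots, 429 by more, and 8 of those at 2-fold or more changed sign. With spike-in scaling the log2 ratios on day 5 were 0.35 for miR-133a*, 0.78 for miR-208*, 0.67 for miR-22*, 0.51 for miR-24-2* and 1.01 for miR-378*, and on day 10 0.70 for miR-24-2* and 0.96 for miR-140*. In blocks 19 to 36 alone miR-140* on day 10 was at 0.012. With spike-in scaling 49, 37 and 24 stars were at 2-fold or more on days 10, 15 and 20, against 14, 5 and 2. On day 5 the count of 29 became 17 when every non-control probe entered the quantile scaling. Plain background subtraction gave 29, 11 and 10 stars on days 10, 15 and 20, and the authors' values 25, 12 and 21. Blocks 1 to 18 gave 9 and 5 stars on days 15 and 20, blocks 19 to 36 gave 8 and 4, and median scaling 5 on day 20. A floor required of every spot left 37 of 60 stars on day 10.

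Pairs of star and guide differing by 2-fold or more numbered 98, 54, 14 and 8 of 238 on days 5 to 20 with no floor, against 10, 9, 5 and 1. Plain background subtraction gave 15 pairs on day 10 and 10 on day 20. On days 15 and 20 median and spike-in scaling gave 8 and 6 pairs each, and the authors' values 9 and 13. On day 20 blocks 1 to 18 gave 5 pairs and blocks 19 to 36 gave 4, and there were 2 with every non-control probe scaled, with no background correction and with the median of spots. In each of these, the cause was not tested, except that no floor compares more pairs. Dim stars are limited by signal over background and by the floor, which was highest on day 5. Bounds were not recomputed.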

Other observations

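Some star strands above the floor on part of the arrays were not described above. The star miR-137*, of a gene known from the nervous system, had 373 units on sham, with single spots from -30 to 1570 units, and was below the floor on the other 4 arrays, at -40 units on TAC day 10 and -54.8 units on day 15. The star miR-455* had 237 units and miR-34c* 177.5 units on sham, each with a guide above the floor on no array. The star miR-196b*, of a gene in a Hox cluster, was below the floor on sham at -24 units and had 159 units on day 10 and 60.5 units on day 15, at least 1.66-fold and 1.36-fold higher. Between sham and day 5, 25 stars were above the floor on sham alone and 2 on day 5 alone, on the array with the highest floor. Between sham and day 20 these counts were 4 and 11. Of the other rat probes, 167 were above the floor on sham and 116 on day 5, with 108 on both. On day 20 they numbered 181, with 166 on both. Nothing particular to stars is read from these counts. The stars named here were chosen after their values were seen.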
